A study of Homo sapiens with 2 samples.

Results

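Apelin and CXCL12 each signal through a small set of secreted peptides and cell surface receptors, and 6 genes of these systems were compared between wild-type (WT) and MEIS2-/- cells. They are the apelin receptor gene APLNR with its ligand genes APLN and APELA, and the chemokine gene CXCL12 with its receptor genes CXCR4 and ACKR3. They were chosen by name, ligands beside receptors, with earlier results of these data known. All 6 were found by NCBI Gene number among the 17397 genes listed. The data comprised 2 RNA-Seq libraries, 1 per genotype, both of H1-derived cells that had been differentiated toward blood until day 4. H1 is an established human embryonic stem cell (hESC) line, and the protocol gave both genotypes 50 ng/ml activin A with 40 ng/ml BMP4 for 2 days, then 40 ng/ml VEGF with 50 ng/ml bFGF for 2 days. The MEIS2-/- line came from a single cell of H1 hESCs that were infected with a Cas9 lentivirus, selected with puromycin and picked as colonies. The sources used here do not name the clone that was sequenced, and they do not say whether the WT cells were infected and selected too. The cells were not sorted, so each value is a mean over the whole culture.

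The apelin receptor is a G-protein-coupled receptor of mesoderm and of young vessels. Its ligands are apelin, encoded by APLN and made by sprouting endothelium and other tissues, and ELABELA (also called Toddler), encoded by APELA and made by undifferentiated hESCs and by early embryos, where it guides mesodermal cells during gastrulation. CXCL12 draws cells that carry CXCR4, a G-protein-coupled receptor of blood progenitors, endoderm and migrating germ cells. ACKR3 binds the same chemokine but passes its signal mainly to arrestins and takes CXCL12 up for breakdown, so it is called a scavenger receptor. APLNR is a standard surface marker of lateral mesoderm, and CXCR4 one of definitive endoderm.

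Expression is given as FPKM, a fragment count scaled by transcript length and by the mapped total of the library, so levels of different genes are set side by side per transcript length. Each genotype had 1 library, so differences have no replicate check and no p-value, and the FPKM tables hold no read counts that would give a counting error. Log2 fold changes are of MEIS2-/- over WT after 0.1 FPKM was added to both, so that changes of low genes are understated. A gene was compared where at least 1 of the libraries reached 1 FPKM, which held for 13075 genes and for all 6 described here. Over the 8092 genes that reached 5 FPKM in each library, the median log2 ratio was 0.12, so a log2 fold change of 0.12 stands at the centre of the libraries. MEIS2 itself, the targeted gene, was at 10.85 FPKM in WT and 3.44 FPKM in MEIS2-/- cells. A Cas9 cut need not remove the RNA of its target, so this level checks the label only in part. An antisense gene overlaps a MEIS2 exon, and the sources used here do not say whether fragments were assigned by strand.

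The 6 genes lie on 5 chromosomes, and their positions are given on GRCh38 from GENCODE 29, while the FPKM values were made on hg19. APLNR lies on chromosome 11 (minus strand), between 57233577 and 57237314, in 1 or 2 exons depending on the transcript. APLN lies on chromosome X (minus strand), between 129645259 and 129654937, in 3 exons. APELA lies on chromosome 4 (plus strand), between 164877004 and 164898965, in 2 to 4 exons. CXCL12 lies on chromosome 10 (minus strand), between 44370165 and 44386493, and its FPKM value pools 5 RefSeq transcripts, the most of the 6 genes. CXCR4, on the minus strand from 136114349 to 136118165, and ACKR3, on the plus strand from 236567787 to 236582358, share chromosome 2. No other gene annotated in GENCODE 29 overlaps any of the 6.

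The members that stood at least 2-fold apart between the libraries were APLN, APELA, CXCR4 and ACKR3, and the RefSeq table of promoters holds APLN, APELA and CXCR4 of these, as well as CXCL12. ACKR3 and APLNR are without an entry. The 250 bases before the annotated start are shown for APLN, APELA and CXCR4, read 5′ to 3′ in the direction of transcription, so that the sequence next to each changed gene can be seen. For CXCR4, which has 3 annotated starts in the table, the most upstream is shown. The windows are chrX:129654957-129655206 (minus strand) for APLN, chr4:164876928-164877177 (plus strand) for APELA and chr2:136118150-136118399 (minus strand) for CXCR4, on GRCh38.p14. Capitals mark every match, on either strand, to the 4 short motifs that were searched.
APLN: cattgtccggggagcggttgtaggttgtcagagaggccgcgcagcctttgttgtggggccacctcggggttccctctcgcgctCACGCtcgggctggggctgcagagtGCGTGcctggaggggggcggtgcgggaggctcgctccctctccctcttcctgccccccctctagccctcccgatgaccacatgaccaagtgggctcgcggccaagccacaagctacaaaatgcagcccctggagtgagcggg
APELA: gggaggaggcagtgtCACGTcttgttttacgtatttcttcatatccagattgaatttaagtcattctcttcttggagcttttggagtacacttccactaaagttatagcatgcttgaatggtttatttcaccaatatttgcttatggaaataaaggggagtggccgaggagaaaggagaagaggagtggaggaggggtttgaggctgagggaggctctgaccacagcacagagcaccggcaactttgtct
CXCR4: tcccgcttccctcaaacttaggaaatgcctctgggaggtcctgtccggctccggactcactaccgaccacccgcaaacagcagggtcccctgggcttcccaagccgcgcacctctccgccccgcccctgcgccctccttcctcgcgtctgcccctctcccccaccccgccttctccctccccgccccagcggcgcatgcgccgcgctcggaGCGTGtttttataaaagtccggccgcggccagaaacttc

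The motifs were the MEIS core TGACAG, the GATA core GATAA, and ACGTG and GCGTG, the forms of the core that hypoxia-inducible factors bind. None of them overlaps another in these windows. TGACAG and GATAA had no match in any of the 3 windows, and of all 35116 windows of this length searched, 13.0% held TGACAG and 20.4% held GATAA. Matches to GCGTG were found in the APLN window at -167 (opposite strand) and -142 (same strand) relative to the start, and in the CXCR4 window at -39 on the same strand. The CXCR4 windows that are not shown were searched too. In chr2:136116236-136116485, GCGTG matched at -224 (same strand) and -64 (opposite strand). In chr2:136117870-136118119, none of the 4 motifs matched. GCGTG is common, since 32.2% of all windows held it. ACGTG was found in the APELA window, at -235 on the opposite strand, and 18.5% of all windows held it. The CXCL12 window held none of the 4 motifs. Base composition set the windows apart as well. G and C made up 45.2% for APELA, 67.6% for APLN, 78.0% for CXCL12 and 68.0% for the CXCR4 window shown. The other CXCR4 windows had 55.6% and 51.6%, and the median over all windows was 58.0%. A match is a run of letters and not a bound site.

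At day 4, the apelin system was lower in its receptor and in apelin, and higher in ELABELA, in MEIS2-/- cells. APLNR was lower by less than 2-fold, APLN was 2.20-fold lower and APELA was 3.98-fold higher. The CXCL12 system was higher in all 3 of its genes, with CXCR4 2.11-fold, ACKR3 3.74-fold and CXCL12 1.87-fold higher. In these bulk cultures, fewer cells that express a gene and less RNA of it per cell cannot be told apart. Of the 6 genes, 1 (APLN) was at least 2-fold lower and 3 (APELA, CXCR4 and ACKR3) were at least 2-fold higher. Among all 13075 genes compared, 7.97% were at least 2-fold lower and 7.84% at least 2-fold higher. The median log2 fold change was 0.97 over the 6 genes and 0.12 over all genes compared.

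**Figure D1:**
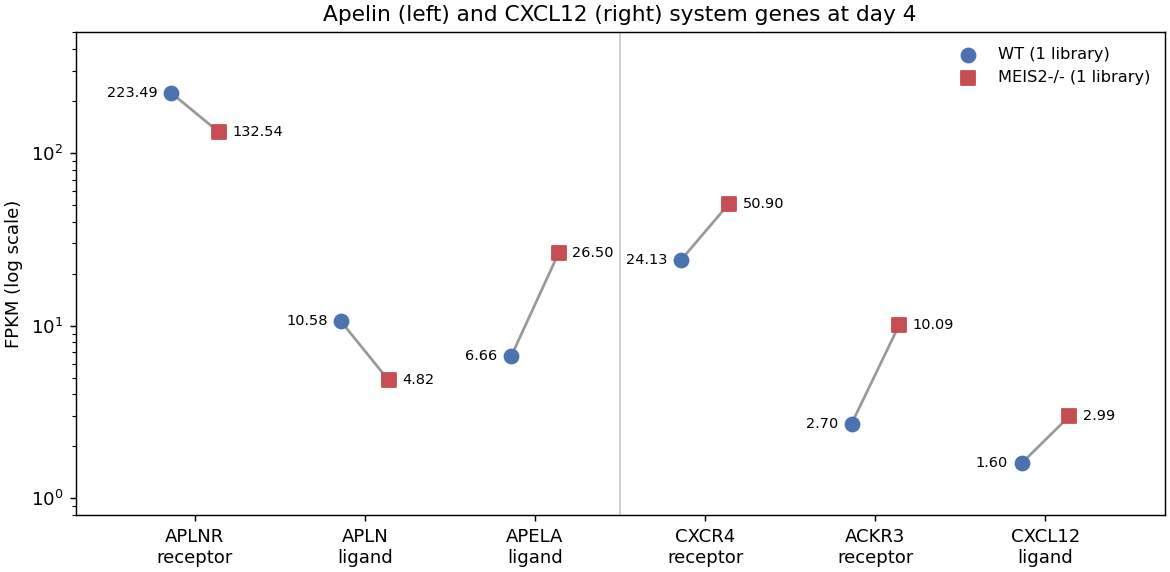
FPKM (log axis) of the 6 genes in the WT library (circles) and the MEIS2-/- library (squares), apelin system on the left and CXCL12 system on the right; each point is 1 library, so there are no error bars. APLNR and APLN sit lower in MEIS2-/- cells, and the other 4 genes sit higher.

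APLNR was the most highly expressed of the 6 genes in both libraries. Its level was 223.49 FPKM in WT and 132.54 FPKM in MEIS2-/- cells (log2 fold change -0.75). In MEIS2-/- cells APLNR thus kept 59.3% of its WT level and remained among the highest genes of the culture. It ranked 276 of the 17397 genes in WT and 512 in MEIS2-/- cells. Relative to the median log2 ratio of the libraries, its log2 fold change was -0.87.

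The apelin ligands went in opposite directions. APLN was at 10.58 FPKM in WT and 4.82 FPKM in MEIS2-/- cells (log2 fold change -1.12). With 1 FPKM added in place of 0.1, its log2 fold change was -0.99, short of 2-fold. APELA was at 6.66 FPKM in WT and 26.50 FPKM in MEIS2-/- cells (log2 fold change 1.98). APELA had the largest fold difference of the 6 genes, and 1.58% of the compared genes were higher by as much or more. For APLN, 6.76% of the compared genes were lower by as much or more. The order of the ligands was therefore reversed between the libraries. APLN made up 61.4% of the summed FPKM of both ligand genes in WT and 15.4% in MEIS2-/- cells. The sum itself was 17.24 FPKM in WT and 31.32 FPKM in MEIS2-/- cells.

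CXCL12, the only ligand of its system among the members, was the lowest of the 6 genes in both libraries. It was at 1.60 FPKM in WT and 2.99 FPKM in MEIS2-/- cells (log2 fold change 0.86), short of 2-fold. CXCR4, its signalling receptor, was at 24.13 FPKM in WT and 50.90 FPKM in MEIS2-/- cells (log2 fold change 1.07). This was just past 2-fold, and relative to the median log2 ratio of the libraries it was 0.96, just short of it. ACKR3, the scavenger receptor, was at 2.70 FPKM in WT and 10.09 FPKM in MEIS2-/- cells (log2 fold change 1.86). For ACKR3, 1.90% of the compared genes were higher by as much or more, and for CXCR4 6.88% were.

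The order of levels differed between the libraries below its first places. In WT cells it ran APLNR, CXCR4, APLN, APELA, ACKR3 and CXCL12. In MEIS2-/- cells it ran APLNR, CXCR4, APELA, ACKR3, APLN and CXCL12, with APLN moved from the third place to the fifth. Without replicates, it is not known which neighbours in these orders differ by more than the spread between cultures. The 3 receptors together summed to 250.32 FPKM in WT and 193.53 FPKM in MEIS2-/- cells, of which APLNR made up 89.3% and 68.5%. The 3 ligands summed to 18.84 FPKM and 34.31 FPKM.

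**Figure D2:**
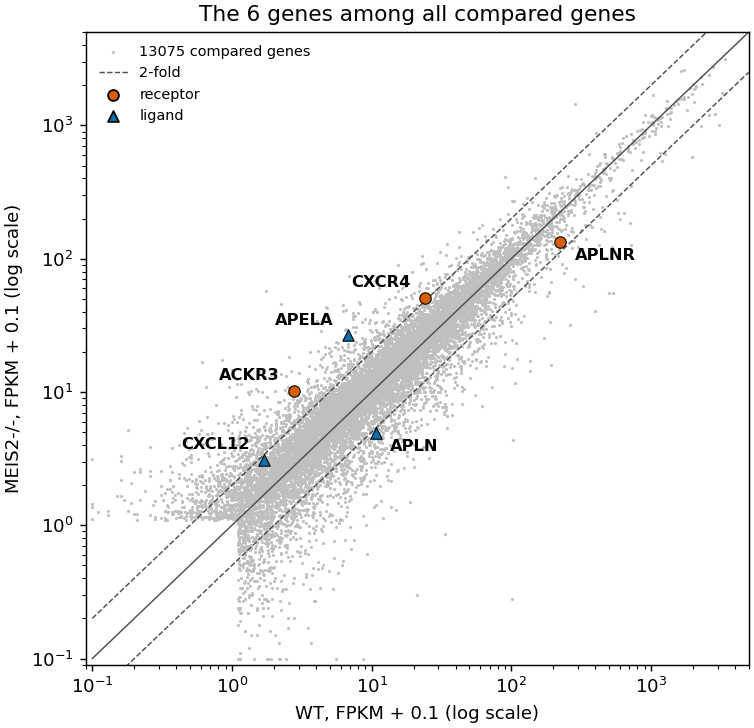
MEIS2-/- against WT level (FPKM + 0.1, both axes log) of the 13075 compared genes (grey), with receptors as circles and ligands as triangles; the solid line marks equal levels and the dashed lines 2-fold. APELA and ACKR3 lie well above the upper dashed line, CXCR4 just above it, APLN just below the lower one, and CXCL12 and APLNR between the lines.

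Ligand and receptor were then set against each other inside each library, where the scaling of the library cancels. Ratios are of the FPKM values as listed, and log2 changes of a ratio are of values with 0.1 FPKM added. APLNR exceeded both of its ligands in both libraries. It was 21.1 times APLN in WT and 27.5 times in MEIS2-/- cells, a log2 change of the ratio APLN to APLNR of -0.36. Both were lower in MEIS2-/- cells, by similar factors. The ratio of APELA to APLNR was 0.0298 in WT and 0.200 in MEIS2-/- cells, a log2 change of 2.73. The ratio of APELA to APLN was 0.629 in WT and 5.50 in MEIS2-/- cells, a log2 change of 3.09, the largest of the 7 ratios formed.

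In the CXCL12 system, CXCR4 was 15.1 times CXCL12 in WT and 17.0 times in MEIS2-/- cells. This ligand and its signalling receptor kept a similar ratio, with a log2 change of -0.21. ACKR3 was 1.69 times CXCL12 in WT and 3.37 times in MEIS2-/- cells, so the ratio of CXCL12 to ACKR3 was close to 2-fold lower, 0.593 against 0.296. The excess of the signalling receptor over the scavenger was smaller in MEIS2-/- cells. CXCR4 was 8.94 times ACKR3 in WT and 5.04 times in MEIS2-/- cells, a log2 change of -0.79. Across the systems, APLNR was 9.26 times CXCR4 in WT and 2.60 times in MEIS2-/- cells.

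**Figure D3:**
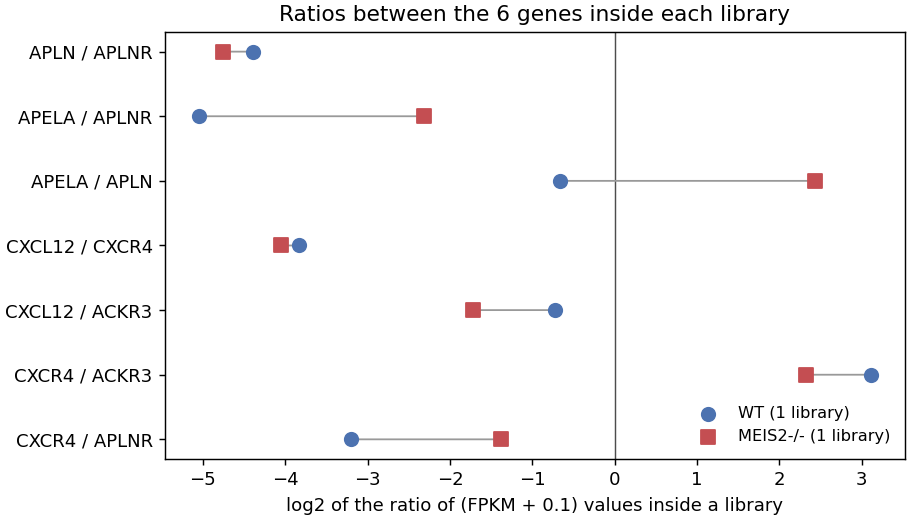
Log2 of the ratio between pairs of the 6 genes (FPKM + 0.1) inside the WT library (circles) and the MEIS2-/- library (squares), 1 library each, with 0 for equal levels. The ratio of APELA to APLN crosses 0, from -0.66 to 2.43, while those of APLN to APLNR and CXCL12 to CXCR4 move least, by -0.36 and -0.21.

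Of the enzymes that cut the apelin peptides, FURIN and MME were within 2-fold. FURIN, the protease that cuts the precursors of apelin and ELABELA, was at 99.51 FPKM in WT and 99.74 FPKM in MEIS2-/- cells. MME, which encodes neprilysin and breaks apelin down, was at 7.66 FPKM and 6.41 FPKM (log2 fold change -0.25).

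On the CXCL12 side, DPP4, a surface protease that clips and inactivates CXCL12, was at 3.56 FPKM in WT and 10.78 FPKM in MEIS2-/- cells (log2 fold change 1.57). Of the 4 genes compared in this list, DPP4 was the 1 at least 2-fold higher, and none was at least 2-fold lower. ADM, which encodes adrenomedullin, another peptide that ACKR3 takes up, was at 74.72 FPKM and 105.63 FPKM. MIF, a cytokine that also binds CXCR4, was far above CXCL12 at 1803.78 FPKM and 1299.91 FPKM, and CD74, its other receptor, was at 14.49 FPKM and 18.05 FPKM. CXCL11, the other chemokine that binds ACKR3, was at 0.10 FPKM in WT cells, listed at 0 in MEIS2-/- cells, and not compared.

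The machinery that receptors of this class share was nearer to equal. All 16 genes of G protein subunits, receptor kinases and arrestins were within 2-fold, with 9 lower, 7 higher and a median log2 fold change of -0.06. GNAQ (5.89 FPKM in WT and 10.37 FPKM in MEIS2-/- cells) and ARRB1, an arrestin (8.78 FPKM and 15.01 FPKM), had the most positive values, and GNB4 (11.67 FPKM and 8.16 FPKM) the most negative. Among 10 RGS genes, whose products switch G protein signals off, 7 were lower and 3 higher, with a median of -0.60. RGS4 (18.85 FPKM and 5.02 FPKM) and RGS10 (14.79 FPKM and 5.38 FPKM) were the 2 at least 2-fold lower, and none was at least 2-fold higher.

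CXCR4 was the highest chemokine receptor gene listed in both libraries, while ACKR3 was below CCR10 in WT and above it in MEIS2-/- cells. Of 21 other chemokine receptor genes, 15 were listed in the tables and 2 reached 1 FPKM. These were CCR10, at 8.13 FPKM in WT and 3.54 FPKM in MEIS2-/- cells, and ACKR2, another scavenger, at 1.13 FPKM and 0.72 FPKM. Both were thus lower in MEIS2-/- cells, CCR10 by over 2-fold, where CXCR4 and ACKR3 were higher. Of 41 other chemokine genes, 24 were listed and 5 reached 1 FPKM, with 1 at least 2-fold higher and none at least 2-fold lower. That gene was CXCL14, at 1.63 FPKM and 12.89 FPKM, a log2 fold change of 2.91. CCL5 was at 8.75 FPKM and 9.97 FPKM.

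Markers of the cells that could carry these genes differed between the libraries too, and their part in the values above was not tested. The members were left out of these lists, and SOX17, KIT, PRDM1, KDR, TEK, EOMES and ADM stand in more than 1 of them. For lateral and early mesoderm, where APLNR is a marker, 11 of 14 compared genes were lower in MEIS2-/- cells, with 6 past 2-fold, and 2 of the 3 higher genes were at least 2-fold higher. The median log2 fold change of this list was -0.89, beside -0.75 for APLNR, and its summed level was 1108 FPKM in WT and 592 FPKM in MEIS2-/- cells. KDR, the VEGF receptor gene of hemangiogenic mesoderm, was at 323.77 FPKM and 61.98 FPKM. HAND1, a lateral mesoderm factor and the highest gene of the list, was at 357.53 FPKM and 265.24 FPKM. TBXT, which encodes brachyury, was at 2.44 FPKM and 10.74 FPKM, and MIXL1 at 2.33 FPKM and 6.47 FPKM.

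For endothelium, all 15 compared genes were lower, 11 of these past 2-fold, with a median of -1.69. The summed level was 896 FPKM in WT and 211 FPKM in MEIS2-/- cells. APLNR (-0.75) and APLN (-1.12) were lower by less than this median, and CXCR4 was higher. ETV2, the factor that starts the endothelial program, was at 109.62 FPKM and 17.54 FPKM, and PECAM1, which encodes CD31, was low in both libraries, at 1.53 FPKM and 0.93 FPKM. Tip cells lead vessel sprouts and are known for APLN and CXCR4. Of 9 tip cell genes, 7 were compared, with 4 lower and 3 higher, 1 at least 2-fold lower (NID2, 57.92 FPKM and 24.84 FPKM) and 2 at least 2-fold higher (IGFBP3, 4.22 FPKM and 28.54 FPKM, and KCNE3, 0.86 FPKM and 1.97 FPKM). DLL4 and ESM1, which define tip cells, were under 1 FPKM in both libraries. The summed level of this list was 103 FPKM in WT and 84.0 FPKM in MEIS2-/- cells.

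Arterial and venous endothelium were listed apart, since CXCR4 is known as an arterial gene and APLNR as a venous one. Of 8 arterial genes compared, 6 were lower, 2 of them at least 2-fold (NRP1, 30.89 FPKM and 10.75 FPKM, and NOTCH1, 25.55 FPKM and 10.85 FPKM), and none was at least 2-fold higher. The summed arterial level was nevertheless higher, 259 FPKM in WT and 331 FPKM in MEIS2-/- cells, through SOX17, a factor of endoderm and germ cells as well, at 141.01 FPKM and 264.03 FPKM. Of 4 venous genes compared, 3 were lower, with FLT4 (6.67 FPKM and 2.03 FPKM) the 1 at least 2-fold lower. The venous sum was 149 FPKM and 127 FPKM, and NR2F2, the defining venous factor, was under 1 FPKM in both libraries. Blood genes were low, with 7 of 11 compared and a sum of 22.5 FPKM in WT and 20.5 FPKM in MEIS2-/- cells. ITGA2B, an integrin gene of megakaryocytes, was at least 2-fold lower, at 4.16 FPKM and 2.03 FPKM, and HBE1, the embryonic globin gene, was the 1 at least 2-fold higher, at 0.42 FPKM and 2.06 FPKM.

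CXCR4 is also a sorting marker of definitive endoderm and is carried by germ cells. Of 10 definitive endoderm genes, 5 were lower and 5 higher, 3 at least 2-fold in each direction, with a median of -0.16 and sums of 244 FPKM in WT and 363 FPKM in MEIS2-/- cells. FOXA1 (2.29 FPKM and 10.22 FPKM) and KIT (3.33 FPKM and 10.02 FPKM) were higher, while HHEX (18.74 FPKM and 4.17 FPKM) and LHX1 (20.61 FPKM and 5.93 FPKM) were lower. The endoderm markers thus did not go one way beside CXCR4. Of 9 germ cell genes compared, 8 were higher, 6 of these past 2-fold, with a median of 1.39 and sums of 343 FPKM and 847 FPKM. TFAP2C was at 10.41 FPKM and 68.29 FPKM and PDPN at 42.37 FPKM and 159.35 FPKM, and DDX4, a gene of later germ cells, was under 1 FPKM in both libraries.

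APELA is made by undifferentiated hESCs, and 10 of 15 compared genes of such cells were higher, 5 of them at least 2-fold, while 2 were at least 2-fold lower. The list had a median of 0.33 on the log2 scale, beside 1.98 for APELA. Its sums were 723 FPKM in WT and 2030 FPKM in MEIS2-/- cells. Most of the difference between these sums came from POU5F1 alone, at 285.65 FPKM and 1454.14 FPKM. NANOG was at 17.13 FPKM and 70.78 FPKM, GDF3 at 5.42 FPKM and 0.87 FPKM, and SOX2, a defining gene, was under 1 FPKM in both libraries. All 11 visceral endoderm genes compared were higher, 8 of these past 2-fold, with a median of 1.62. Their sums were 2463 FPKM and 3068 FPKM, most of it from APOE, at 2011.12 FPKM and 2036.74 FPKM. APOE was nearly equal in the libraries, and its log2 fold change of 0.02 was below the median of 0.12 over all genes compared. TTR was at 0.38 FPKM and 5.31 FPKM and APOB at 0.27 FPKM and 3.72 FPKM.

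CXCL12 is usually made by mesenchyme, whose genes went the other way. Of 11 mesenchyme genes compared, 9 were lower, 5 of them at least 2-fold, none was at least 2-fold higher, and the median was -0.84, beside 0.86 for CXCL12. Their summed level was 624 FPKM in WT and 274 FPKM in MEIS2-/- cells. COL1A1, a collagen chain gene, was at 464.09 FPKM and 160.87 FPKM, and POSTN, which encodes periostin, at 1.54 FPKM and 2.99 FPKM.

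Low oxygen is known to raise APLN, CXCR4, CXCL12 and ACKR3 in several cell types, so targets of hypoxia-inducible factors were listed as well. Of 15 compared, 14 were lower in MEIS2-/- cells and 13 of these passed 2-fold. The median was -1.76 on the log2 scale, with sums of 7205 FPKM in WT and 2415 FPKM in MEIS2-/- cells. ANKRD37 was at 33.68 FPKM and 0.76 FPKM and DDIT4 at 499.98 FPKM and 55.50 FPKM. Among the members, APLN was lower in MEIS2-/- cells, and CXCR4, CXCL12 and ACKR3 were higher. Whether oxygen had a part in these differences was not tested. The 1 higher gene of the list was ADM.

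**Figure D4:**
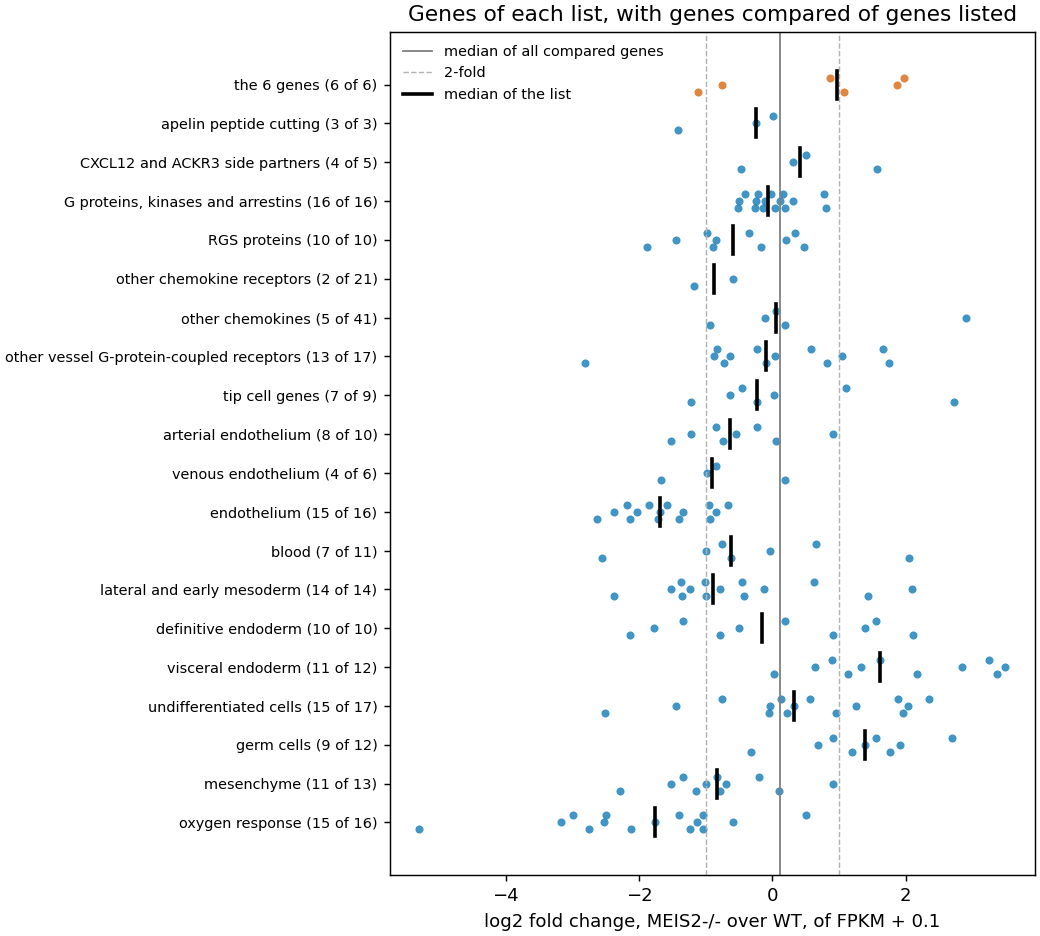
Log2 fold change (MEIS2-/- over WT, of FPKM + 0.1) of each compared gene in the 6 genes (orange) and 19 other lists (blue), with a black bar at each list's median, a grey line at the median of all compared genes (0.12) and dashed lines at 2-fold. The 6 genes spread from -1.12 to 1.98, the endothelium (-1.69) and oxygen response (-1.76) medians lie furthest left, and the visceral endoderm median (1.62) furthest right.

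Genes with levels most like each member were found by the Euclidean distance over the log2(FPKM + 0.1) values of the 2 libraries, a likeness that rests on 2 points. Nearest to APLNR were EIF4EBP1 (distance 0.06), SH3BGRL3 (0.17) and RBPMS (0.17). Nearest to APLN were ALPK2 (0.03), SRGAP2B (0.04) and SLC27A1 (0.05). HNF4A (0.15), a factor of visceral endoderm and liver, ST14 (0.18) and FGF13 (0.19) were nearest to APELA. CXCL12 had MANEAL (0.01), GRM2 (0.05) and POSTN (0.05) as its nearest genes, and CXCR4 had DSP (0.04), which encodes desmoplakin of epithelial junctions, HMGB3 (0.06) and FRAT2 (0.09). For ACKR3 they were SLC37A1 (0.11), SIK1 (0.12) and CPXM2 (0.16). None of the 6 members was among the 3 nearest genes of another.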

How the data were processed

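RNA was extracted with Trizol and made into TruSeq libraries for an Illumina GAIIx, 1 library per genotype. For each library the authors deposited a table of FPKM values with 2 decimals, listed by NCBI Gene number with RefSeq transcripts. The submitters' processing notes name BWA, Bowtie and RSEM, with no version or role given, and the build hg19. FPKM is relative to each library's total, so a change in abundant genes shifts all others. NCBI Gene numbers were mapped to symbols for 17365 of 17397 genes. The values were used as deposited, with a pseudocount of 0.1 FPKM, a filter at 1 FPKM and a threshold of 2-fold. No test was made. Whole-read steps were sought in low values of single-transcript genes of 500 to 1500 bases (408 and 476 genes). Agreement, where 1 is complete, reached 0.17 and 0.26, so the depth was not recovered and is unknown.

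The members and the 19 other lists were chosen with earlier results of these data known. Named were the members, the genes of both partner lists, up to 2 extremes per direction and the highest gene of the other lists, MEIS2, and the 3 genes nearest to each member. DLL4, ESM1, NR2F2, DDX4, SOX2, AGTR1 and AGTR2 were named in addition, since they were under 1 FPKM. Some genes that this rule names are not reported here. Alternatives changed the pseudocount (to 1 or 0.01), the filter (to none or to 5 FPKM) and the threshold (to 1.5-fold or 4-fold), or rescaled the libraries to a median log2 ratio of 0, by the trimmed mean of log ratios (30% and 5% trimmed) and to TPM. The computation was tested on planted changes. Promoters came from RefSeq (GRCh38.p14). Python 3.11.15, numpy 2.4.6, pandas 2.3.3 and matplotlib 3.10.9 were used.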

Additional observations from a re-analysis of the deposited data

How the results depend on the processing

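Neither library's depth nor the spread between cultures of a genotype is known, so no alternative below shows stability against either. The count of 1 member at least 2-fold lower became 0 with a pseudocount of 1 FPKM, where the log2 fold change of APLN was -0.99. With a threshold of 1.5-fold, 2 members (APLNR and APLN) were counted as lower and 4 as higher, and with a threshold of 4-fold, 0 were counted in either direction. Rescaling to a median log2 ratio of 0 or by the trimmed mean of log ratios left 2 members at least 2-fold higher, without CXCR4, whose log2 fold change was 0.96 and 0.97. The other counts were as given in the report. Over the 5 alternatives that bear on them, log2 fold changes ran from -0.87 to -0.73 for APLNR, -1.23 to -0.99 for APLN, 1.84 to 2.00 for APELA, 0.62 to 0.90 for CXCL12, 0.96 to 1.10 for CXCR4 and 1.58 to 1.90 for ACKR3. No member changed direction under these settings. The log2 change of the ratio CXCL12 to ACKR3 was -0.97 with a pseudocount of 1 FPKM. With either of those rescalings it came to just under 2-fold, only because 0.1 FPKM was added after the rescaling. The ratio of the values as listed does not depend on the scaling. No paired analysis was possible because each genotype has 1 library.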

Other observations

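Other G-protein-coupled receptors of vessels, which share the class of APLNR and CXCR4, went both ways. Of 17 such genes, 13 were compared, with 7 lower and 6 higher, 1 at least 2-fold lower and 3 at least 2-fold higher. Their median log2 fold change was -0.09, beside 0.12 over all genes compared. CALCRL, the receptor through which adrenomedullin signals, was at 2.70 FPKM in WT and 0.30 FPKM in MEIS2-/- cells (log2 fold change -2.81). ACKR3, which takes adrenomedullin up, was thus higher, CALCRL lower, and ADM itself higher by less than 2-fold. ACKR3 and CALCRL were both at 2.70 FPKM in WT cells. GPER1, a receptor for estrogen, was at 1.37 FPKM and 4.84 FPKM, and LPAR4, a receptor for lysophosphatidic acid, at 0.59 FPKM and 2.07 FPKM. F2R, a thrombin receptor and the highest of the list in WT cells, was at 29.82 FPKM and 18.04 FPKM. AGTR1, the angiotensin receptor closest to APLNR, was under 1 FPKM in both libraries, and AGTR2 was listed at 0 in both. The difference between ACKR3 and CALCRL was noticed in these values and was not tested.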
